A study of Arabidopsis thaliana with 8 samples.

Results

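The 8 genes studied here belong to the autophagy conjugation machinery of Arabidopsis thaliana: ATG3 (AT5G61500) and the ATG8 isoform genes ATG8B (AT4G04620), ATG8C (AT1G62040), ATG8D (AT2G05630), ATG8E (AT2G45170), ATG8F (AT4G16520), ATG8G (AT3G60640) and ATG8H (AT3G06420). They were followed isoform by isoform in leaves of droughted and watered plants. They were chosen by locus, and each of the 8 genes is measured by 1 of the 22810 probe sets of the Affymetrix ATH1 array. On this array all 8 passed the filter on low signals that 15523 probe sets passed. None of their values fell below the 40th percentile of the array it came from, and the lowest was 215.2.

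Autophagy carries cytoplasm and organelles in double-membrane vesicles to the vacuole, where they are broken down. ATG8 is a small protein with a ubiquitin fold. It is activated by ATG7, passed to the E2-like enzyme ATG3 and joined by ATG3 to the lipid phosphatidylethanolamine on the growing membrane. There ATG8 also recruits cargo receptors. Plants hold a family of ATG8 genes and, in Arabidopsis, a single ATG3 gene. In leaves the pathway is known for recycling nutrients during starvation and senescence and for a role in tolerance of drought and other stresses.

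The 4 groups were dor drought, dor control, WT drought and WT control, each with 2 arrays labelled as biological replicates. The dor plants carry a SALK T-DNA insertion (Salk-050074) in the Columbia background, which is 1 insertion line, and WT plants are Columbia. Drought plants of both genotypes were watered for 24 days and then given no irrigation for 10 days, and control plants were watered for 34 days, all in soil under 16 h of light and 8 h of dark at 22 °C. Rosette leaves were used, and how many plants went into a sample is not given in the sources used here. The design asks how drought alters leaf transcripts in either genotype, and if that response depends on the dor insertion.

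The unit is the linear MAS5 signal of a probe set, scaled by the authors to a common trimmed mean on each array. A change is given as a difference of mean log2 signal between groups, with the SE (standard error) from a limma fit over all tested probe sets, and a gene is called at an adjusted p under 0.05. With 2 arrays a group, the number of arrays limits the precision of every value. The arrays also split by replicate number, with median signals of 97.3 to 120.5 in replicate 1 and 163.4 to 170.8 in replicate 2. The 5 prime to 3 prime signal ratio of actin was 0.370 and 0.389 in dor and WT drought replicate 1 but 0.245 and 0.229 in dor and WT control replicate 1, and 0.366 to 0.575 on the 4 arrays of replicate 2. Of 10 leaf mesophyll markers 6 have a named probe set, and their summed signal was 25067.3 and 71317.0 on the dor drought arrays at the lowest and highest, against 123105.7 and 175036.1 in dor control, and 89845.7 and 111270.1 in WT drought against 93619.0 and 161584.9 in WT control. Of 5 guard cell markers 3 have a named probe set, with a summed signal of 676.7 and 696.3 in dor drought against 2575.2 and 7809.5 in dor control, and 750.4 and 953.7 in WT drought against 3261.8 and 8365.1 in WT control. That gap comes from GC1, at 11.6 and 26.2 in dor drought against 7166.6 and 1571.2 in dor control and 96.3 and 197.9 in WT drought against 7790.8 and 2331.1 in WT control. CHX20 stayed between 418.3 and 552.2 on all 8 arrays, and FMA read 259.9 and 207.2 in dor drought against 211.0 and 451.8 in dor control, and 235.8 and 229.3 in WT drought against 153.0 and 476.5 in WT control. Of 6 root markers 1 has a named probe set (EXPA7), and it lay under the 40th percentile on all 8 arrays, while the seed, flower and companion cell lists have 0 named probe sets. The part of these marker and quality values in the results below was not tested, and in leaf RNA fewer cells of a type cannot be told apart from less RNA per cell. DOR itself read 2.3 and 3.7 in dor drought, 3.7 and 21.4 in dor control, 3.1 and 5.2 in WT drought and 7.0 and 5.0 in WT control, which is too low on every array to check the genotype labels.

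Droughted leaves gave a positive fitted difference for every one of the 8 genes in both genotypes, but few of these passed a test. The drought difference was positive for 8 of 8 in dor (median 1.51) and for 8 of 8 in WT (median 0.96), where over all tested probe sets the medians were 0.17 and 0.16 and 55.8% and 56.0% were positive. In WT the median was 0.54 without drought replicate 1, with 6 of 8 positive, against 61.6% of the tested probe sets. It was 1.50 without drought replicate 2, and 1.06 without control replicate 2, again with 6 of 8 positive, against 60.9%. In dor 7 of 8 were positive without drought replicate 1 (against 60.4%), without control replicate 2 (58.5%) and after median centring (51.8%). For 5 of the 8 genes (ATG3, ATG8B, ATG8F, ATG8G and ATG8H) all 4 drought arrays lay above all 4 control arrays, which held for 10.5% of the tested probe sets. Drought lay above control in each of the 4 pairs of one genotype and replicate number for 6 of the 8, those 5 and ATG8C, against 23.1% of the tested probe sets. All 4 drought arrays lay below all 4 control arrays for 0 of the 8, against 9.41%. Both drought arrays lay above both control arrays for 6 of 8 in dor (those 5 and ATG8D), against 26.5%, and for 5 of 8 in WT, against 22.9%. None of the 8 was called within a genotype, and ATG8B was the single one called over both genotypes together. Other scalings place the median of all tested probe sets nearer 0: over both genotypes it was 0.17 with the authors' scaling, 0.05 after quantile normalization and 0.03 after median centring. The median of the 8 genes was 1.20, 1.21 and 1.06 in the same 3 scalings.

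**Figure D1:**
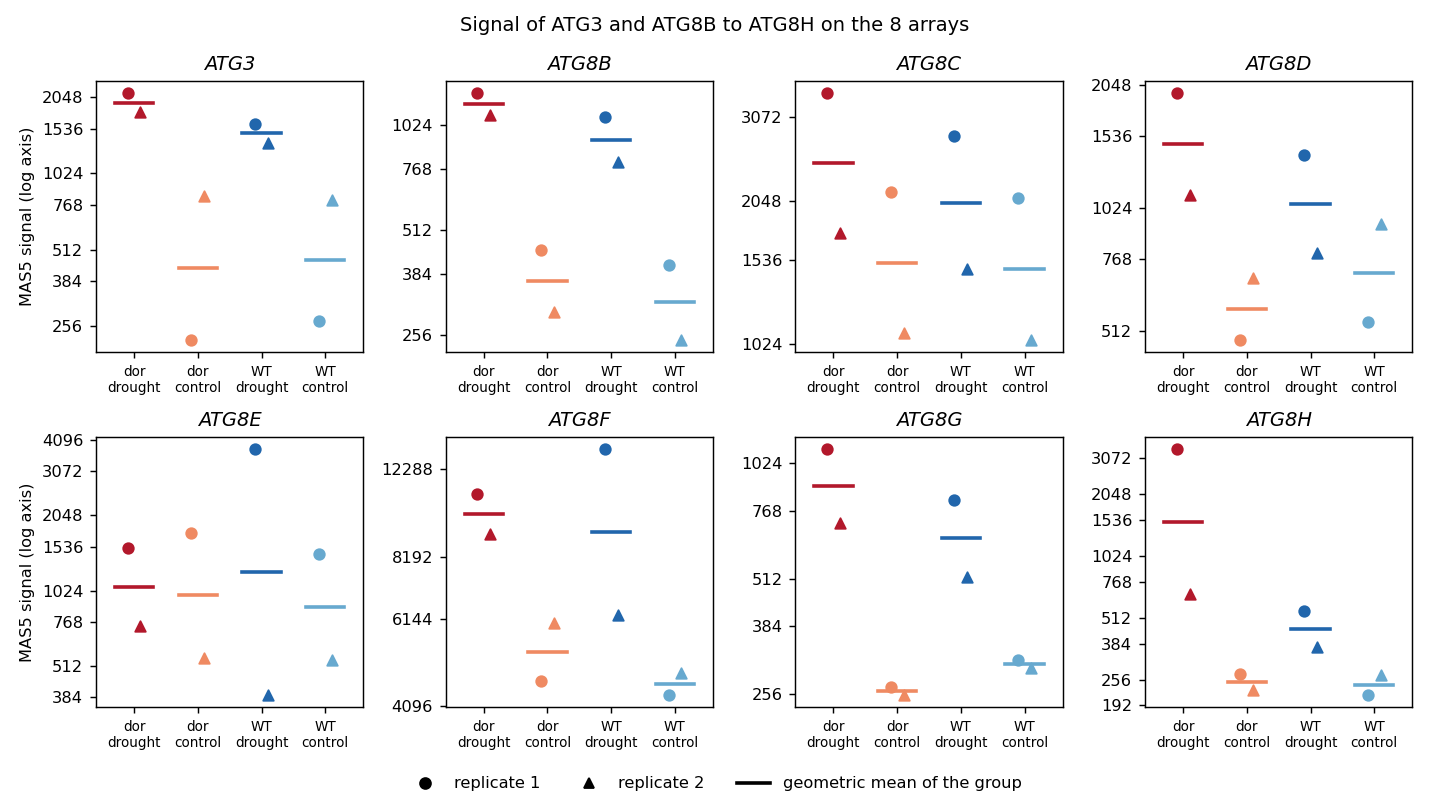
Signal of each gene (log axis) on the 8 arrays by group, with circles for replicate 1, triangles for replicate 2 and a bar at the geometric mean of the 2 arrays. The drought points of ATG3, ATG8B, ATG8F, ATG8G and ATG8H all lie above the control points of both genotypes, while those of ATG8C, ATG8D and ATG8E overlap with control points.

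ATG3, the enzyme that joins ATG8 to its lipid, had signals of 2117.4 and 1783.6 in dor drought replicates 1 and 2, against 226.1 and 830.8 in dor control. In WT it read 1603.3 and 1349.0 in drought, against 267.6 and 806.4 in control. The drought arrays were close to each other and the control arrays were not: in both genotypes control replicate 1 was well below replicate 2, at a log2 difference of replicate 2 minus replicate 1 of 1.88 in dor and 1.59 in WT. The ratio of drought to control was therefore 9.37 in replicate 1 and 2.15 in replicate 2 of dor, and 5.99 and 1.67 in WT. The control arrays of replicate 1, on which ATG3 was lowest, are those with the low actin ratio. Their ubiquitin ratio (middle to 3 prime) was also lowest, at 0.174 in dor and 0.184 in WT, against 0.331 to 0.632 on the other arrays. Their 5 prime to 3 prime ratio of GAPDH was not low, at 1.030 in dor and 1.014 in WT, against 0.799 to 1.092. By limma the drought difference was 2.16 ± 0.78 in dor (adjusted p = 0.242), 1.66 ± 0.78 in WT (adjusted p = 0.540) and 1.91 ± 0.51 over both genotypes (adjusted p = 0.0600). Without control replicate 1 the difference was 1.23 in dor and 0.87 in WT, and without both those arrays it was 1.05 ± 0.32 over both genotypes (adjusted p = 0.227).

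ATG8B, an isoform of the membrane-bound ubiquitin-fold protein, had similar drought to control ratios in all 4 pairs. It read 1262.7 and 1097.5 in dor drought, against 449.8 and 299.7 in dor control. In WT its signals were 1078.3 and 803.9 in drought, against 408.0 and 249.2 in control. The groups of each genotype do not overlap, and the ratio of drought to control was 2.81 and 3.66 in dor and 2.64 and 3.23 in WT. Its drought difference was 1.68 ± 0.56 in dor (adjusted p = 0.217) and 1.55 ± 0.56 in WT (adjusted p = 0.453). Over both genotypes ATG8B rose by 1.61 ± 0.35 (limma, adjusted p = 0.0335). It was 1 of 8 genes called, where limma called 5.81% of the tested probe sets in either direction and 2.84% as higher.

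That call was lost in 12 of 19 other settings. The fit treats dor and WT arrays that share a condition and a replicate number as independent samples, and with a random block for each such pair the adjusted p was 0.202. It was 0.0555 after quantile normalization, 0.0991 after median centring, 0.0744 with a block for how the label words the extraction of RNA and 0.0931 without both control arrays of replicate 1. With 1 array left out it was 0.105 and 0.0847 without dor drought replicates 1 and 2, 0.0798 and 0.0542 without dor control replicates 1 and 2, 0.0919 and 0.0555 without WT drought replicates 1 and 2, 0.0712 without WT control replicate 1 and 0.0483 without WT control replicate 2. The size of the difference stayed between 1.47 and 1.94 over these and the other settings.

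ATG8G read 1115.7 and 714.7 in dor drought, against 267.1 and 254.2 in dor control. The WT arrays read 822.9 and 515.5 in drought, against 314.5 and 298.6 in control. The control arrays of ATG8G lie close together, dor just under WT, and every drought array lies well above them. The drought difference was 1.78 ± 0.55 in dor (adjusted p = 0.197), 1.09 ± 0.55 in WT (adjusted p = 0.564) and 1.43 ± 0.36 over both genotypes (adjusted p = 0.0512). Of the 8 genes ATG8G followed the mean of the other 7 most closely over the 8 arrays, at a Pearson r of 0.97 on standardized log2 signals, given as a description.

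ATG8H had the highest ratio of drought to control of any of the 8 genes in 1 pair of arrays. It read 3411.1 and 666.3 in dor drought, against 272.3 and 228.0 in dor control. In WT it read 551.0 and 367.5 in drought, against 215.2 and 268.6 in control. Drought lay above control in every pair, but by a factor of 12.5 in dor replicate 1 and of 2.92, 2.56 and 1.37 in dor replicate 2, WT replicate 1 and WT replicate 2. The drought difference was 2.60 ± 0.79 in dor (adjusted p = 0.189) and 0.90 ± 0.79 in WT (adjusted p = 0.708). Over both genotypes it was 1.75 ± 0.58 (adjusted p = 0.0987). Without dor drought replicate 1 it was 1.42 in dor and 1.11 ± 0.39 over both genotypes (adjusted p = 0.191).

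ATG8F read 10973.6 and 9121.0 in dor drought, against 4595.7 and 6017.9 in dor control. The WT arrays read 13516.3 and 6265.3 in drought, against 4311.1 and 4773.8 in control. The lowest drought array, WT replicate 2, lies only just above the highest control array, dor replicate 2. The drought difference was 0.93 ± 0.53 in dor (adjusted p = 0.437), 1.02 ± 0.53 in WT (adjusted p = 0.570) and 0.97 ± 0.34 over both genotypes (adjusted p = 0.113). The WT value was 0.47 without drought replicate 1 and 1.58 without drought replicate 2.

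**Figure D2:**
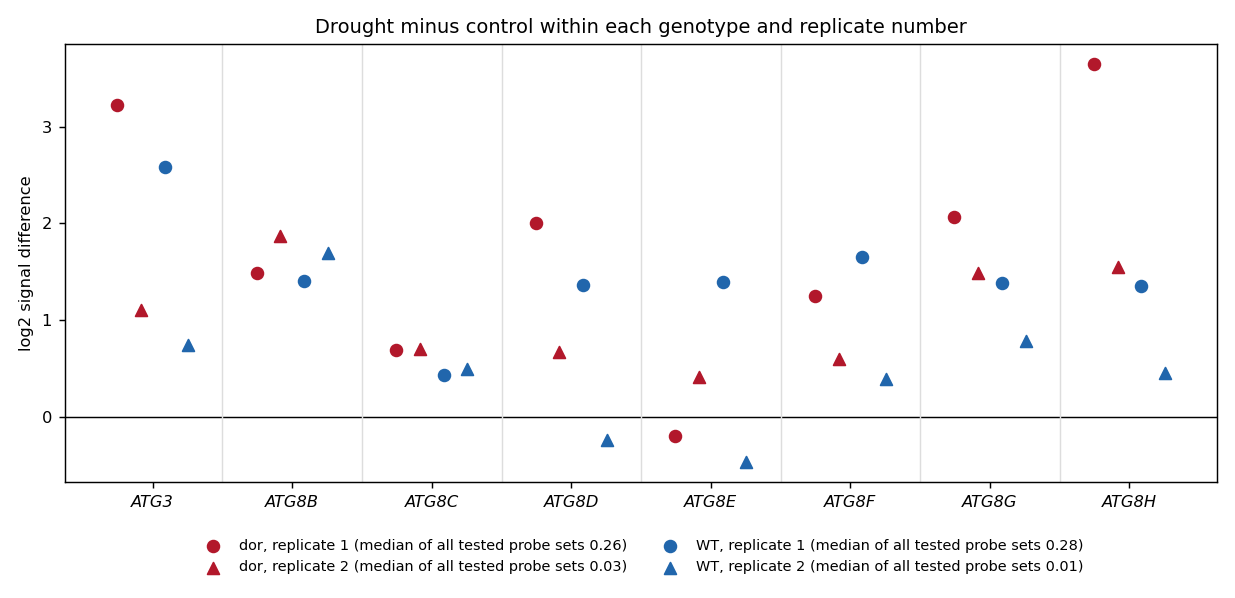
log2 signal difference of drought minus control for each gene within each pair of arrays that share genotype and replicate number, with red for dor, blue for WT, circles for replicate 1 and triangles for replicate 2. Points lie above 0 in all 4 pairs for 6 genes, in 3 of 4 for ATG8D and in 2 of 4 for ATG8E, and the highest are ATG8H and ATG3 in replicate 1 of dor.

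ATG8C read 3453.7 and 1755.1 in dor drought, against 2135.5 and 1077.9 in dor control, and 2803.6 and 1472.5 in WT drought, against 2079.6 and 1044.0 in WT control. The groups overlap because replicate 2 was about 1 log2 unit under replicate 1 in all 4 groups, at -0.98 and -0.99 in dor drought and control and -0.93 and -0.99 in WT drought and control. Within a replicate number the ratio of drought to control hardly varied, at 1.62 and 1.63 in dor and 1.35 and 1.41 in WT. The fitted drought difference was 0.70 ± 0.67 in dor (adjusted p = 0.640), 0.46 ± 0.67 in WT (adjusted p = 0.832) and 0.58 ± 0.44 over both genotypes (adjusted p = 0.405), with SE values that hold this gap between replicates. In dor it was 0.21 without drought replicate 1 or control replicate 2 and 1.19 without drought replicate 2 or control replicate 1. In WT it was -0.0009 without drought replicate 1, -0.034 without control replicate 2, 0.93 without drought replicate 2 and 0.96 without control replicate 1. Over both genotypes it was 0.36 without dor drought replicate 1 or dor control replicate 2.

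ATG8D read 1950.4 and 1099.4 in dor drought, against 486.5 and 688.7 in dor control. In WT it read 1375.1 and 792.5 in drought, against 535.7 and 931.9 in control. The dor groups do not overlap and the WT groups do, since WT drought replicate 2 lay below WT control replicate 2 at a ratio of 0.850. The drought difference was 1.34 ± 0.61 in dor (adjusted p = 0.340), 0.56 ± 0.61 in WT (adjusted p = 0.766) and 0.95 ± 0.41 over both genotypes (adjusted p = 0.170). The WT value was 0.17 without drought replicate 1, 0.16 without control replicate 1, and 0.96 without either array of replicate 2.

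ATG8E was the gene least like the rest, with a Pearson r of 0.38 to the mean of the other 7. It read 1519.8 and 736.2 in dor drought, against 1741.2 and 552.9 in dor control. In WT it read 3780.4 and 391.0 in drought, against 1434.8 and 540.9 in control. The 2 droughted WT arrays are the highest and the lowest of all 8, so the spread within that group exceeds any difference between groups. Drought lay below control in dor replicate 1 (ratio 0.873) and WT replicate 2 (0.723) and above it in dor replicate 2 (1.33) and WT replicate 1 (2.64). The drought difference was 0.11 ± 1.11 in dor (adjusted p = 0.971, and -0.0067 after median centring), 0.46 ± 1.11 in WT (adjusted p = 0.903) and 0.29 ± 0.74 over both genotypes (adjusted p = 0.826). Over both genotypes its sign turned without single arrays, to -0.40 without WT drought replicate 1, -0.0305 without WT control replicate 2 and -0.0088 without dor control replicate 2.

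Counted over the group, limma called 0 of the 8 genes in dor, where 0.567% of the tested probe sets were called, and 4 of 8 (ATG3, ATG8B, ATG8G and ATG8H) had an unadjusted p under 0.05, where 15.7% of the tested probe sets did. Without dor drought replicate 1 that count was 0 of 8, and 951 of the 15523 tested probe sets passed. In WT it called 0 of 8, against 0.00644% of the tested probe sets, and 1 of 8 (ATG8B) had an unadjusted p under 0.05, against 9.55%, and 0 of 8 did without WT drought replicate 1, with 678 of the tested probe sets. The WT count was 2 of 8 without dor control replicate 1 or 2, fits that keep both arrays of each WT group, with 1676 and 1698 of the tested probe sets. Over both genotypes 6 of 8, all but ATG8C and ATG8E, had an unadjusted p under 0.05, against 27.5% of the tested probe sets. With 1 array left out 4 to 6 of 8 did, and 2830 to 5102 of the 15523 tested probe sets. With the random block, 3 of 8 had an unadjusted p under 0.05 over both genotypes, as did 2234 of the tested probe sets. The adjusted p of ATG3, ATG8G and ATG8H by limma was then 0.234, 0.272 and 0.403. The 95% intervals for dor and WT overlap for every gene, and the comparisons of the 2 genotypes share no array.

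**Figure D3:**
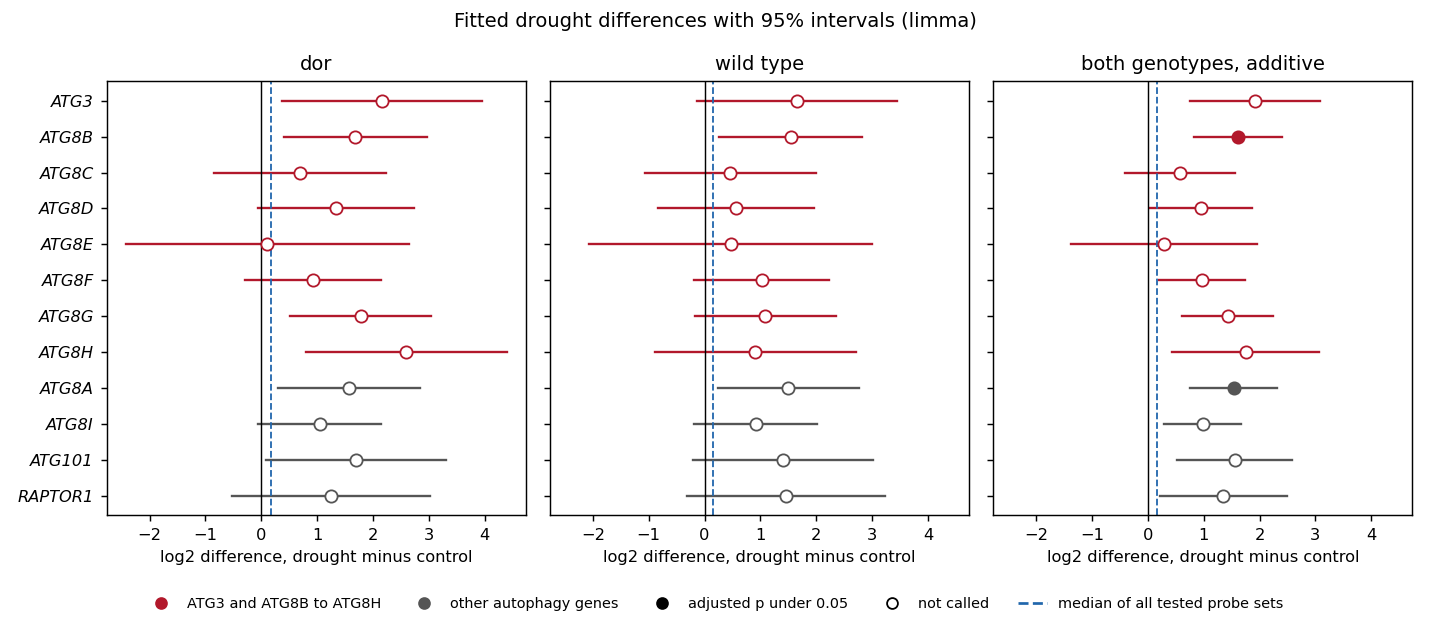
Fitted log2 difference of drought minus control (points) with 95% intervals (lines) in dor, in WT and over both genotypes for the 8 genes (red) and 4 further autophagy genes (grey), where filled points are called and the dashed line is the median of all tested probe sets. All 12 points lie above 0 in each panel, and ATG8B and ATG8A are the 2 filled ones, in the panel of both genotypes. ATG8I, ATG101 and RAPTOR1 were chosen after their values were seen. The 9 other tested loci of the list are not drawn: 8 of them were positive in each comparison, and the lowest were -0.81 in dor, -0.40 in WT and -0.0019 over both.

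The replicates of a group differed in a way that the genotypes shared. Under drought all 8 genes were lower in replicate 2 than in replicate 1 in both genotypes, with a median of -0.73 in dor and -0.73 in WT, while over all tested probe sets the medians were 0.23 and 0.26 and 23.5% were lower in both. Between the control replicates the genes went different ways, but each gene but ATG8H in the same direction in dor and WT: ATG3, ATG8D and ATG8F were higher in replicate 2 and ATG8B, ATG8C, ATG8E and ATG8G lower. The range over the 8 genes was -1.66 (ATG8E) to 1.88 (ATG3) in dor and -1.41 to 1.59 in WT. The replicate number also goes with the median signal given above, and its part in these gaps was not tested. The median drought difference of the 8 genes was accordingly 1.75 within replicate 1 and 0.90 within replicate 2 of dor, and 1.39 and 0.47 in WT. The medians of all tested probe sets in those pairs were 0.26 and 0.03 in dor and 0.28 and 0.01 in WT.

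**Figure D4:**
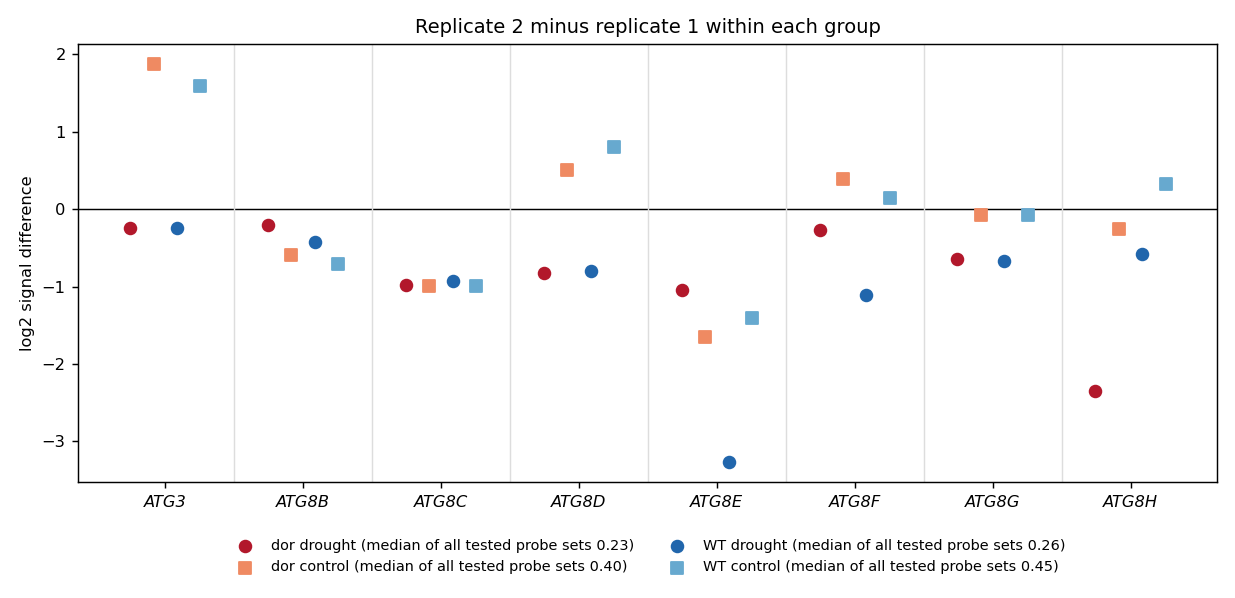
log2 signal difference of replicate 2 minus replicate 1 in each group, with circles for drought, squares for control, red shades for dor and blue shades for WT. The circles lie below 0 for all 8 genes, and the squares reach 1.88 for ATG3 and -1.66 for ATG8E in dor.

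Between the genotypes the 8 genes differed little when watered. For dor control minus WT control the difference was positive for 5 of 8, against 48.6% of the tested probe sets, with a median of 0.05. Here limma called 0 of 8, against 0% of the tested probe sets, with 0 of 8 at an unadjusted p under 0.05, against 0.457%. The differences within a replicate number ran from -0.24 to 0.34 in replicate 1 and from -0.44 to 0.33 in replicate 2. Under drought, dor minus WT was positive for 7 of 8, against 49.9% of the tested probe sets. The median was 0.37, against -0.00 over all tested probe sets. For this comparison limma called 0 of 8, against 0%, with 0 of 8 at an unadjusted p under 0.05, against 3.17%. With the random block for condition and replicate number, limma called 0 of 8 and 22 of the 15523 tested probe sets. An unadjusted p under 0.05 was then reached by 1 of 8 and by 1891 of the tested probe sets. Under drought dor lay above WT in both replicate numbers for 6 of 8 genes, all but ATG8E and ATG8F, against 29% of the tested probe sets. Both dor arrays lay above both WT arrays for 3 of them, ATG3, ATG8B and ATG8H, against 15.1%. In drought replicate 1 dor was higher for 6 of 8, against 50.1% of the tested probe sets, and the differences ran from -1.31 to 2.63. In drought replicate 2 dor was higher for 8 of 8, by 0.25 to 0.91, against 49.1%.

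ATG8H differed most between the droughted genotypes, by 1.74 ± 0.79 with a 95% interval of -0.05 to 3.54 (adjusted p = 1.00), 2.63 in replicate 1 and 0.86 in replicate 2. Without dor drought replicate 1 that difference was 0.57, and without dor drought replicate 2 it was 2.92. The difference of its drought responses, dor minus WT, was 1.69 ± 1.11 with a 95% interval of -0.85 to 4.24 (adjusted p = 1.00), and it was 0.51 without dor drought replicate 1 and 2.87 without dor drought replicate 2. For ATG8E the droughted genotypes differed by -1.31 in replicate 1 and 0.91 in replicate 2, opposite signs, and the fitted value was -0.20 ± 1.11. Over the 8 genes the difference of the drought responses, dor minus WT, was positive for 6, against 49.5% of the tested probe sets. Its median was 0.37, and limma called 0 of 8, against 0%, with 0 of 8 at an unadjusted p under 0.05, against 1.19%. With the random block 0 of 8 were called, and 1 of 8 and 1079 of the 15523 tested probe sets had an unadjusted p under 0.05. The intervals are wide enough to hold differences of several fold, so equal responses of the genotypes are not shown.

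The levels of each gene by group followed 1 of 3 orders. By geometric mean, ATG8B stood at 1177.2 in dor drought, 931.0 in WT drought, 367.2 in dor control and 318.9 in WT control, and ATG8C, ATG8F and ATG8H followed the same order, which in ATG8H ran 1507.6, 450.0, 249.2 and 240.4. ATG3, ATG8D and ATG8G had the droughted groups in that order too, with WT control above dor control, as in ATG8G at 893.0, 651.3, 306.4 and 260.6. ATG8E alone had WT drought on top, at 1215.8, then dor drought at 1057.8, dor control at 981.2 and WT control at 881.0. The arrays of the drought groups overlapped for every gene but ATG3, ATG8B and ATG8H. In those dor lay above WT, as it did for 15.1% of the tested probe sets. The arrays of the control groups overlapped for every gene but ATG8G. How many of the tested probe sets had control groups that do not overlap was not counted.

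Of 41 other loci on a list of the autophagy pathway, 13 have a probe set that the probe table used here gives to them alone, and all 13 have one that was tested. That probe table leaves out 8794 of the 22810 probe sets, so the array may still measure loci counted here as without one. The gene table gives an autophagy name or partner role to 4 of these, and the other 9 are listed there by locus identifier only. On the pathway list those 9 are ATG4B, ATG16, ATG1A, ATG1B, ATG1C, ATG1T, ATG13B, VPS38 and ATG14A. The 4 are ATG8A and ATG8I, further isoforms of the same protein (ATG8I is AT3G15580, listed under the older symbol APG8H, and is not ATG8H), ATG101, a subunit of the kinase complex that starts autophagy, and RAPTOR1, a partner of the kinase TOR, which restrains it. ATG8A read 4711.4 and 2315.0 in dor drought, against 931.3 and 1331.3 in dor control, and 2279.3 and 2329.5 in WT drought, against 812.2 and 818.2 in WT control. ATG8A rose over both genotypes, by 1.53 ± 0.35 (limma, adjusted p = 0.0381), and its call was lost in 11 of 19 other settings. ATG8I, ATG101 and RAPTOR1, chosen after their values were seen, differed by 0.98 ± 0.31, 1.55 ± 0.45 and 1.35 ± 0.50 (adjusted p = 0.0854, 0.0742 and 0.127). Every drought array lay above every control array for these 4 and for 0 of the other 9 loci, so for 4 of 13 listed loci, against 10.5% of the tested probe sets. Of those other 9 loci 8 had a positive difference, none was called, and their median was 0.48, ranging from -0.0019 (ATG1T) to 1.34 (ATG1C). All 13 listed loci together had a median of 1.16 over both genotypes, against 1.20 for the 8 genes. In dor these medians were 1.05 and 1.51, and in WT 1.15 and 0.96. With ATG8A and ATG8I, all 9 measured ATG8 genes had a positive difference over both genotypes, with 2 called and a median of 0.98. Over all tested probe sets 56.2% were positive, 5.81% were called, and the median was 0.17. With the random block neither ATG8B (adjusted p = 0.202) nor ATG8A (adjusted p = 0.249) was called by limma.

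The 5 genes most like the 8 in pattern, by Pearson r of log2 signal over the 8 arrays with the mean of their standardized log2 signals, were AT4G28085 (r = 0.99), AT3G62650 (r = 0.99), UPB1 (AT2G47270, a transcription factor known for balancing reactive oxygen in roots, r = 0.99), AT2G38820 (r = 0.99) and AT5G64160 (r = 0.99). They were picked for this likeness among all tested probe sets with 1 gene, so r is a description, and the arrays share condition and replicate number. AT4G28085 read 2925.6 and 654.1 in dor drought, against 130.7 and 87.2 in dor control, and 1061.2 and 263.0 in WT drought, against 96.8 and 92.6 in WT control. Each part of that shape held for most of the 8 genes, but not always in the same genes. All drought arrays lay above all control arrays for 5 of 8. Replicate 1 lay above replicate 2 under drought in both genotypes for 8 of 8. Droughted dor lay above droughted WT in both replicate numbers for 6 of 8. UPB1 read 2521.6 and 822.0 in dor drought, against 50.5 and 44.9 in dor control, and 2067.2 and 180.8 in WT drought, against 38.2 and 45.7 in WT control.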

How the data were processed

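Leaf RNA was measured on 8 ATH1 arrays. The deposited intensity values are linear signals, 1 per probe set and array, from GCOS with MAS5 as run by the authors, per the submitters' processing notes; versions are not given in the sources used here. Their mean after trimming 2% at each end was 500.0 or 500.1 on every array.

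Signals under 1 were set to 1 and log2 was taken. Tests took in each probe set for which 2 or more arrays reached the 40th percentile of their own array, without the 64 control probe sets, which left 15523. Names came from a probe table and a RefSeq gene table (TAIR10.1); 13436 of 22810 probe sets stood for 1 gene of it. The files name no genome build, so coordinates are left out. Comparisons used limma 3.58.1 in R 4.3.3 (lmFit, eBayes with intensity trend, two-sided, Benjamini-Hochberg over the tested probe sets): 4 group means, or condition plus genotype for both genotypes together. The fit was tested on simulated data. Alternatives were other scalings, filters, an offset, blocks, and leaving out arrays. The genes, lists, tests and alternatives were chosen with earlier results of these data known. The naming rule took the 8 genes, other autophagy genes that were called, and the 5 genes most alike. Figures used matplotlib 3.10.9. The p-values measure the spread between these samples.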

Additional observations from a re-analysis of the deposited data

How the results depend on the processing

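The alternatives were 20 for the comparisons of 2 groups and 19 for the others. In the 3 drought comparisons the sign of ATG3, ATG8B, ATG8D, ATG8F, ATG8G and ATG8H held in every one. That of ATG8C turned in WT with 1 array left out (-0.034 to 0.96). ATG8E turned with 1 array left out in dor (-0.72 to 0.94), in WT (-1.17 to 2.10), over both genotypes (-0.40 to 0.91), between droughted genotypes (-1.84 to 1.44) and in the difference of responses (-1.99 to 1.28), and in dor after median centring (-0.0067). Over both genotypes it was 1.05 without both control arrays of replicate 1.

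Of the 8 genes, over both genotypes, 0 were called after median centring, with the extraction wording as a block, with a random block for each pair of condition and replicate number and without both control arrays of replicate 1; 2 with the offset, with the 60th percentile filter and with signals raised to the 40th percentile; 3 with the replicate number as a fixed block; and 0 to 2 with 1 array left out. ATG8B lost its call in 12 of 19 alternatives. ATG3 gained one in 5, such as quantile normalization (adjusted p = 0.0411), and ATG8G in 3, such as the 60th percentile filter (adjusted p = 0.0413).

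Over all tested probe sets the calls for drought in dor were 88, and 153 after quantile normalization, 167 with raised signals, 35 with the extraction block, 0 without both control arrays of replicate 1, and 0 to 108 with 1 array left out. In WT they were 1, and 0 after median centring, without the trend, with the extraction block and without those controls, 2 with raised signals, 3 after quantile normalization and with only the 4 arrays compared, and 0 to 6 with 1 array left out. Over both genotypes they were 902, and 12 with the random block, 1682 with the fixed replicate block, 387 with the extraction block, 12 without those controls, and 171 to 1543 with 1 array left out. Calls over both genotypes were 1072 with the offset, 1087 with raised signals and 1044 of 11481 with the 60th percentile filter. Between droughted genotypes the random block gave 22. The cause of these moves was not tested.

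The median of the 8 genes ranged with 1 array left out from 1.17 to 1.77 for drought in dor, from 0.54 to 1.50 in WT, from 1.02 to 1.41 over both genotypes, from -0.083 to 0.10 between watered genotypes, from 0.10 to 0.77 between droughted ones and from 0.14 to 0.86 for the difference of responses, which was 0.30 without both control arrays of replicate 1.

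Replicate 1 minus 2 correlated between genotypes at r = 0.40 under drought and 0.59 under control watering, and between conditions at -0.04 to 0.05; the labels state no pairing.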
